A study of Homo sapiens with 2 samples.

Results

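The BMP, activin and TGF-beta genes described here are 38 genes that encode ligands, antagonists and immediate targets of these signalling pathways. They were taken by symbol and by role. The rule uses no measured value, but the list was chosen with earlier results of these data known. The list held 17 BMP and GDF ligands, 9 genes for activin and inhibin subunits, TGF-beta and AMH, 6 antagonists, and 6 targets of the pathways. All 38 were found by their RefSeq intervals on hg38. They belong to the 15107 protein-coding genes of chromosomes 1 to 22 whose direction of transcription was known, which served as the background throughout. ATAC-Me sequences the DNA that a transposase can enter after a conversion step that separates methylated from unmethylated cytosines, so a fragment reports accessibility and CpG methylation together. The libraries came from 2 replicates of H9, an established human embryonic stem cell line. These were 1 group of undifferentiated, untreated cells grown in mTeSR medium on plates coated with Matrigel, with no second genotype, treatment or control group. H9 is a single line. The labels do not say whether the replicates came from separate cultures, and p-values then measure only the spread between these samples or their reads, which may be technical. An exact sign-flip permutation test of 2 values cannot go below p = 0.5, and none is given.

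BMPs, GDFs, activins and TGF-betas are secreted dimers that bring type I and type II receptor kinases together. The receptors phosphorylate SMAD proteins, which enter the nucleus with SMAD4 and act on target genes. Among these targets are the ID genes, and SMAD6 and SMAD7, which feed back to damp the pathway. In human embryonic stem cells activin and TGF-beta signals help to keep the pluripotent state, whereas BMP signals push the cells to differentiate and BMP antagonists favour neural fates. Low CpG methylation at a start is common to active and to silent CpG island genes, so it is not a measure of expression.

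Replicate 1 had 28475863 reads over autosomal CpGs and covered 31.6% of these sites, and replicate 2 had 51406146 reads and covered 59.0%. Across the autosomes 32.3% and 46.0% of CpG reads were methylated. Of the pluripotency markers, 4 of 8 had a start of known direction. NANOG, SOX2 and DNMT3B were each below 3% methylated in both replicates with a peak at the start, and DPPA4 read 20.8% and 56.3% with none. The neural progenitor genes PAX6, SOX1 and NEUROG2 were below 2% and had start peaks too. The starts of these 2 marker lists thus looked largely alike. No fibroblast marker had a start of known direction, and PTPRC, a blood marker, had no reads at its start.

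The results turned on the CpGs around each start, so the 250 bases before the start are shown for 8 genes, from RefSeq on GRCh38.p14, with every CpG in capitals. The targets ID1, ID3 and SMAD6 and the ligand GDF7 and antagonist CHRD are shown first because their CpGs were almost free of methylation. ID1 lies on the plus strand with this window at chr20:31605039-31605288, and ID3 on the minus strand at chr1:23559502-23559751. SMAD6 has its window at chr15:66701986-66702235, GDF7 at chr2:20666894-20667143 and CHRD at chr3:184379804-184380053, all on the plus strand.
ID1: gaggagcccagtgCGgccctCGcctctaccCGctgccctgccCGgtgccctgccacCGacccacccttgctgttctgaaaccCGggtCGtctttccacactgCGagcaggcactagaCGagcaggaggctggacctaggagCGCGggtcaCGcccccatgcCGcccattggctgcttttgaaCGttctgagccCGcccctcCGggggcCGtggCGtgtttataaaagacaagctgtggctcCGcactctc
ID3: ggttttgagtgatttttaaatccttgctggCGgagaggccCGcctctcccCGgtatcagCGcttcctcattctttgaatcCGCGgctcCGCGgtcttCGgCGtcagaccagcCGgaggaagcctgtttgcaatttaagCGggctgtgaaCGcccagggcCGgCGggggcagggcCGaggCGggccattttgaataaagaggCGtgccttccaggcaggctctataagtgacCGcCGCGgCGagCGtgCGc
SMAD6: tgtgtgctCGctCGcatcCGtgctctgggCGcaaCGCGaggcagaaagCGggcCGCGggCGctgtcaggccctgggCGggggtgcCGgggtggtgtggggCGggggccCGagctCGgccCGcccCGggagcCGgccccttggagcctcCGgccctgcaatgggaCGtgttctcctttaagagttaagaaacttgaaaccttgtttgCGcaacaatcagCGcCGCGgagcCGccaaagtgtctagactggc
GDF7: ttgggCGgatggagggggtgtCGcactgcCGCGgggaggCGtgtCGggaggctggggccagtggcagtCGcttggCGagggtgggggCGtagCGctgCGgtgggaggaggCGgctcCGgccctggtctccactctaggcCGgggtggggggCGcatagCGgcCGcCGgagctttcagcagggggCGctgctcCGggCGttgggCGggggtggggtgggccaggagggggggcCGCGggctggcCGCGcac
CHRD: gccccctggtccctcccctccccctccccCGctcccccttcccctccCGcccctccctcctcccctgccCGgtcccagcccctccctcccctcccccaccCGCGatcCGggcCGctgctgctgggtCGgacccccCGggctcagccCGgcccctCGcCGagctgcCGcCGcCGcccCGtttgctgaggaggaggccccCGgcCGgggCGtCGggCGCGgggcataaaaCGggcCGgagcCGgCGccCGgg
The 19 CpGs of the ID1 window had 0 methylated of 113 reads in replicate 1 and 1 of 305 in replicate 2. ID3 had 0 of 361 and 7 of 585 over 24 CpGs, and SMAD6 had 0 of 245 and 2 of 390 over 25. GDF7, with no peak at its start, had 0 of 93 and 2 of 269 over 26 CpGs. CHRD, also without a start peak, had 1 of 83 and 10 of 188 over 27.

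The next 3 windows are shown because they carried methylated reads. GDF15 lies at chr19:18385908-18386157, INHA at chr2:219572060-219572309 and AMH at chr19:2249073-2249322, all on the plus strand.
GDF15: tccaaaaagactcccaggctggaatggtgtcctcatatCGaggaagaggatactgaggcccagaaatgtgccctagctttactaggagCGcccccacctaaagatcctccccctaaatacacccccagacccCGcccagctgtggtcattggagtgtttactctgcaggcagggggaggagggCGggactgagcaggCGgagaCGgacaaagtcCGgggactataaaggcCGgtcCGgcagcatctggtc
INHA: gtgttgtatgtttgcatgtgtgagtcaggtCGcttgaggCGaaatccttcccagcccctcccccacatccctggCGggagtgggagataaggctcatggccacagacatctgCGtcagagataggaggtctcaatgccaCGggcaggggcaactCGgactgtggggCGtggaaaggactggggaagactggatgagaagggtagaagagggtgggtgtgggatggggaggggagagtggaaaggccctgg
AMH: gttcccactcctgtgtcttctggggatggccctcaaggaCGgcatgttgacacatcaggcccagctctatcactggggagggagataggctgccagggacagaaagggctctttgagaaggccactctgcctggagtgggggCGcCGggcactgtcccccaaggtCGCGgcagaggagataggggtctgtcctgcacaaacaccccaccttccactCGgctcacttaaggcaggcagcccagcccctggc
These windows held 9, 7 and 6 CpGs, fewer than each of the 5 windows above. GDF15 had 18 methylated of 49 reads in replicate 1 and 33 of 92 in replicate 2. INHA had 9 of 16 and 12 of 18. AMH had 1 of 3 and 12 of 17, with reads at 2 of its 6 CpGs in replicate 1, so this window is thinly read.

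Start methylation is given below as the percent of CpG reads within 500 bp of the start that were methylated, for genes with at least 20 such reads in each replicate. Of the 38 genes, 33 passed that minimum, and BMP5, BMP10, GDF2, INHBC and GREM1 did not. Most of the measured starts were close to unmethylated: 29 of 33 were under 20% in both replicates, against 90.7% of the 11235 genes measured in the background. The median start read 0.789% in replicate 1 and 1.94% in replicate 2 (1.36% ± 0.811, SD, n = 2), beside 0.696% and 1.68% over all genes. The 29 low starts themselves spanned 0% to 2.79% in replicate 1 and 0.788% to 5.40% in replicate 2. The remaining 4 genes, GDF15, INHA, INHBE and AMH, were at 20% or more in both replicates, where 7.91% of all genes lay.

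**Figure D1:**
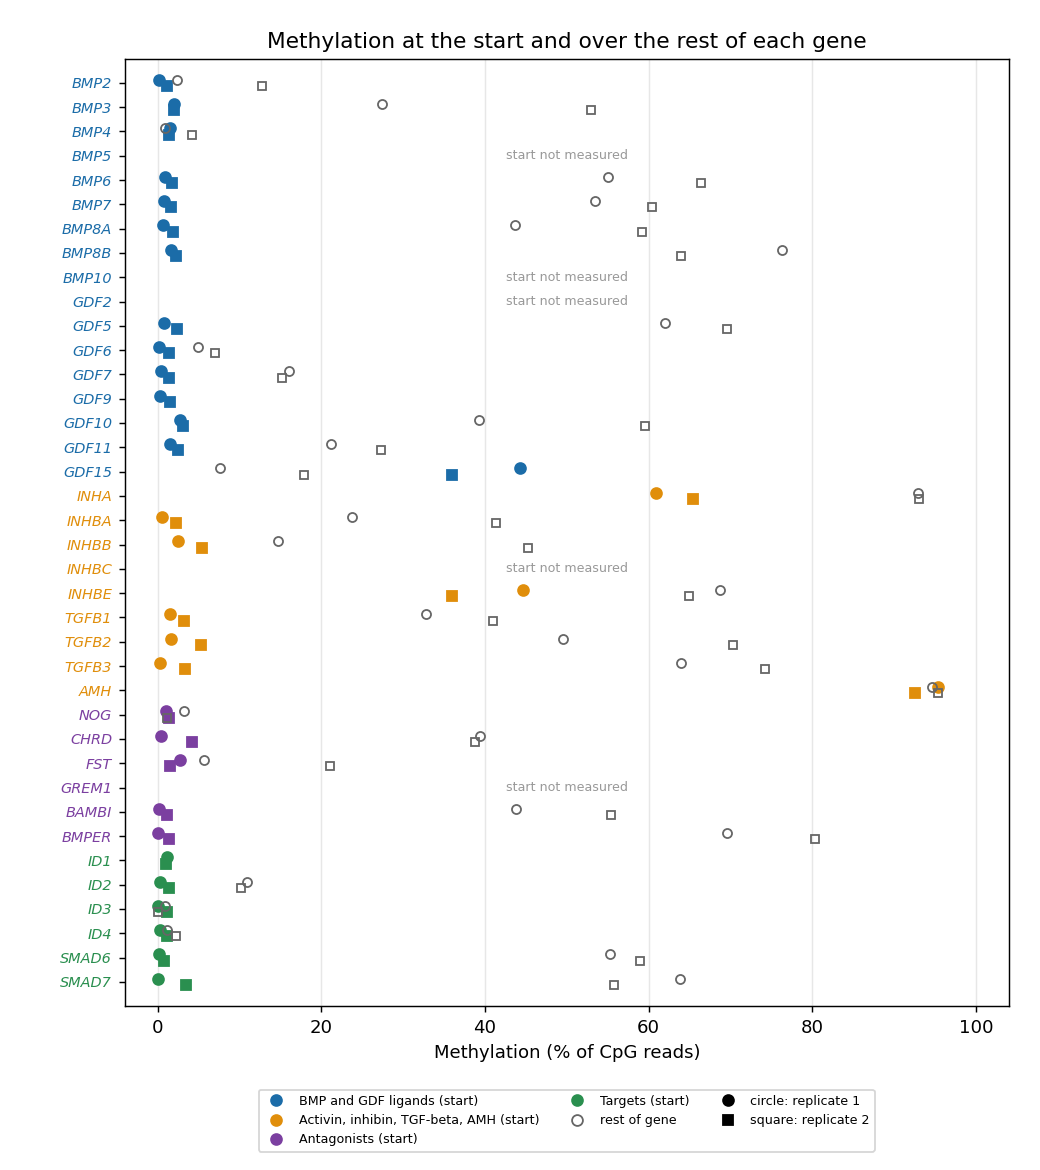
Methylation, as the percent of CpG reads, within 500 bp of the start (filled, coloured by role) and over the rest of the gene more than 1000 bp from the start (open), with circles for replicate 1 and squares for replicate 2. The filled symbols sit at the left edge for 29 genes and away from it for GDF15, INHA, INHBE and AMH; the rest of GDF9 and of ID1 had under 20 reads and is not drawn.

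Among the 17 BMP and GDF ligands, 13 of the 14 measured starts were under 20% in both replicates. Their median was 0.880% and 1.87% (1.38% ± 0.701, SD, n = 2). BMP4, which drives human embryonic stem cells out of pluripotency, read 1.5% and 1.42% at its outermost start, on 599 and 705 CpG reads. The lowest start in replicate 1 belonged to BMP2, a bone and heart morphogen, at 0.163% of 612 reads, and it read 1.20% of 751 reads in replicate 2. GDF10, a relative of BMP3, was the highest of the low ligands of this group, at 2.79% and 3.08%. All 13 low ligands therefore lay within a few percent of each other. BMP8A and BMP8B are near-identical copies whose reads can be split between them, so their values, 0.686% and 1.94% for BMP8A and 1.62% and 2.22% for BMP8B, are uncertain.

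GDF15 encodes a stress-induced cytokine and was the exception among the BMP and GDF ligands. Its start read 44.2% in replicate 1 (95% Wilson interval 35.4 to 53.4, 113 reads) and 36.0% in replicate 2 (30.7 to 41.7, 286 reads). The replicates overlapped within counting error. Single CpGs of the window printed above ran from 0% at 67 bp before the start to 100% at 212 bp before it in replicate 1, on 6 and 2 reads. In replicate 2 the same CpGs read 20% and 100%, on 10 reads and 1 read. The peak at this start, with its summit 32 bp inside the gene and a signal of 375, read 38.6% and 30.4%, so accessible fragments there carried methylated CpGs. Further into GDF15, 2000 to 3000 bp from the start, 87 CpGs read 6.39% of 219 reads and 14.2% of 534, with no peak there.

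The CpGs that flank the GDF15 start on the upstream side were mostly methylated. From 1000 to 3000 bp before the start the bins read between 75.0% and 100% in replicate 1 and between 50% and 100% in replicate 2, on 8 to 25 and 6 to 19 reads. The plot of single CpGs shows a dip at the start and a second, deeper one near the end of the gene.

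**Figure D2:**
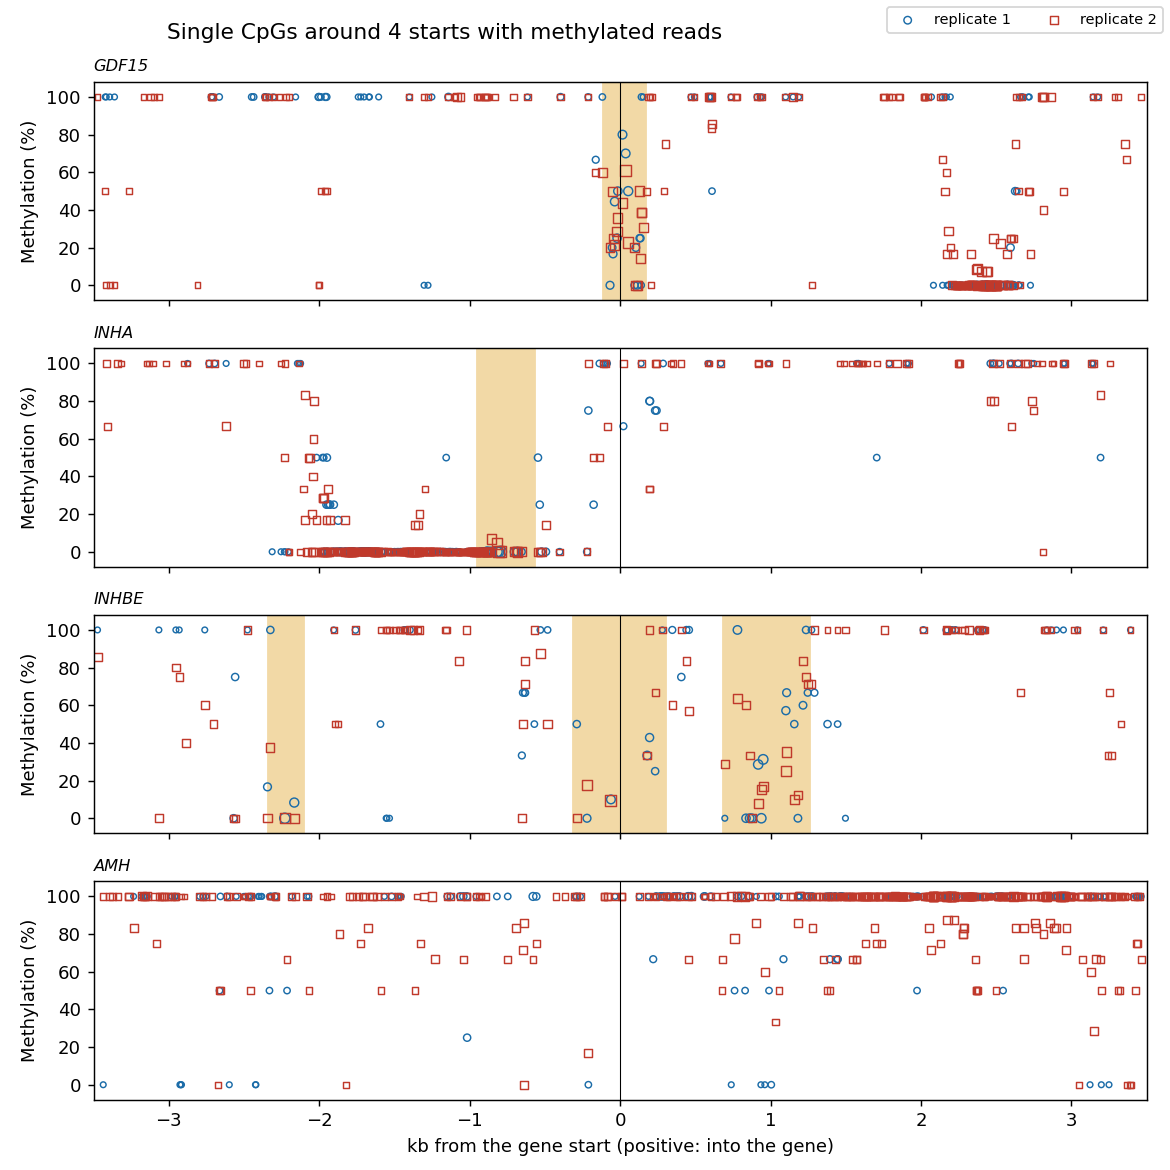
Methylation of single CpGs (percent of reads) against distance from the start in kb for GDF15, INHA, INHBE and AMH, with circles for replicate 1, squares for replicate 2, symbol size rising with reads and shaded bands for peaks. GDF15 and INHBE dip inside their peaks, INHA is methylated at the start but not in the peak upstream of it, and AMH is methylated throughout.

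In the group of activin, inhibin, TGF-beta and AMH genes 5 of 8 measured starts were under 20% in both replicates. The group median was 2.08% and 5.33% (3.71% ± 2.30, SD, n = 2). INHBA and INHBB, which encode the subunits of the activins, read 0.599% and 2.26%, and 2.50% and 5.40%. TGFB1, TGFB2 and TGFB3 encode the 3 TGF-beta ligands, and their starts read 1.53% and 3.25%, 1.67% and 5.26%, and 0.339% and 3.29%. In each of these 5 genes replicate 2 was the higher, as it was over the background.

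INHA, the inhibin alpha subunit, read 60.9% in replicate 1 (46.5 to 73.6, 46 reads) and 65.5% in replicate 2 (52.3 to 76.6, 55 reads). Its replicates differed by less than their counting intervals. The interval from 500 to 1000 bp before this start read 1.21% and 0.631%, and it holds a peak of signal 802 whose summit lies 819 bp before INHA. That summit is 48 bp from the start of OBSL1, the neighbouring gene, so the peak that counts for INHA lies at another gene's start.

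INHBE, an activin subunit gene known for expression in liver, read 44.6% (32.4 to 57.6, 56 reads) and 35.9% (27.3 to 45.5, 103 reads). It has 12 CpGs within 500 bp of the start, and its peak there, of signal 1123, read 26.8% and 23.6%. A further peak 1018 bp into the gene, of signal 927, read 32.5% and 32.0%. Both peaks were thus partly methylated in both replicates. The neighbouring INHBC had 10 and 20 CpG reads at its start and was not measured. Its gene interval ends 3245 bp from INHBE, and 6 of its 7 peaks are also listed for INHBE.

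AMH, the hormone that makes the Müllerian ducts regress, was alone over 80%. Its start read 95.3% (87.1 to 98.4, 64 reads) and 92.5% (84.6 to 96.5, 80 reads), where 2.64% of all genes exceeded 80% in both replicates. The rest of AMH was at 94.6% and 95.3%, so the start did not stand out from the gene, and the nearest summit lay 12579 bp away.

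All 5 measured antagonists were under 20% in both replicates, with a median of 0.382% and 1.45% (0.915% ± 0.755, SD, n = 2). NOG, whose protein binds and blocks BMPs, read 0.995% and 1.36%. CHRD, another BMP-binding protein, read 0.382% of 262 reads and 4.18% of 933. FST, which traps activins, read 2.78% and 1.49%. BAMBI, a decoy receptor without a kinase, read 0.155% and 1.16%, and BMPER, a secreted BMP-binding protein, 0% and 1.45%. The 369 reads of BMPER in replicate 1 allow a share of up to 0.813%. CHRD in replicate 2 was the highest value of the group.

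GREM1, a BMP antagonist, had no read over the 114 CpGs of its start in either replicate. Coverage was low in its whole neighbourhood. Within 200 kb on each side 2.15% and 3.84% of 4613 CpGs were covered, where the same windows of the other 37 genes ranged from 22.3% to 54.0% in replicate 1 and from 45.2% to 84.0% in replicate 2. The start listed 480 bp further in had 22 and 14 reads, none methylated. No level can be given for GREM1 at this depth.

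The 6 targets were the lowest group. Their median start was 0.244% in replicate 1 and 1.13% in replicate 2 (0.686% ± 0.625, SD, n = 2). ID1 to ID4 encode helix-loop-helix proteins that block DNA binding of differentiation factors. ID1 read 1.17% and 1.04% on 257 and 578 reads, and ID2 0.348% and 1.38% on 1722 and 2250. ID3 had 0% of 530 reads, which allows up to 0.566%, and 1.13% of 794. ID4 read 0.280% and 1.12% on 2862 and 2761 reads, more than any other of the 38 genes in either replicate. SMAD6 read 0.208% and 0.788%. SMAD7 had 0% of 81 reads, which allows up to 3.70%, and 3.45% of 174 reads. The replicates differed more within SMAD7 than the targets differed among themselves in replicate 1.

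Ligands of both groups together exceeded the targets by 1.24 and 1.20 percentage points in median start methylation (1.22 ± 0.0304, SD, n = 2). The direction was the same in both replicates, but the size depended on the window, from 0.323 within 250 bp to 1.87 within 1000 bp. Antagonists exceeded targets by 0.138 and 0.321 points (0.230 ± 0.130, SD, n = 2). That difference changed sign to -0.00027 within 1000 bp and to -0.0977 with every CpG weighted equally. The medians themselves had SDs between replicates of 0.595 in ligands, 0.755 in antagonists and 0.625 in targets. No test of these differences was run.

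Replicate 2 read higher at many starts. By Fisher's exact test of the reads, two-sided and Benjamini-Hochberg adjusted over 11235 genes, 9 of the 33 starts differed between replicates, against 28.3% of all genes that were higher in replicate 2. All 9 were higher in replicate 2: GDF5, GDF6, GDF9, TGFB3, CHRD, BAMBI, ID2, ID3 and ID4. In the background 1.26% were higher in replicate 1. The share among these genes was close to the background. CpGs of a fragment share a read, so these p-values, and those below, are too small.

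Beyond 1000 bp from the start the genes split further. The rest of the gene had a median of 39.3% and 52.9% over the 31 genes with enough reads (46.1% ± 9.62, SD, n = 2), against 74.6% and 81.8% over all genes. By role it was 40.1% ± 18.1 for BMP and GDF ligands, 62.2% ± 7.69 for activin, inhibin, TGF-beta and AMH genes, 39.1% ± 0.382 for antagonists and 10.6% ± 0.462 for targets (SD, n = 2). Ligands were 28.4 and 49 points above targets, and antagonists 28.5 and 28.6 points above. The antagonist median was the value of CHRD in both replicates, so its small SD is that of 1 gene. The rests of the antagonists ran from a mean of 2.20% in NOG to 75.0% in BMPER. The target median rests on 5 genes that differ widely, as the values below show. Their lengths run from 1576 bp in ID3 to 80614 bp in SMAD6, and the part of gene length in these gaps was not tested.

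The start was lower than the rest of the gene for 25 of 31 genes in both replicates by Fisher's exact test (two-sided, adjusted p under 0.05), where 90.9% of 10481 genes were. The count was 11 of 13 among BMP and GDF ligands, 7 of 8 among activin, inhibin, TGF-beta and AMH genes, 4 of 5 among antagonists and 3 of 5 among targets. GDF15 alone was higher at its start, with 7.66% and 17.9% over the rest, and Fisher's exact test gave adjusted p of 1.63e-14 and 1.56e-08. In the background 2.69% of genes were higher. The low rest of GDF15 is made up mainly of the CpG-dense stretch 2000 to 3000 bp from its start, which held 219 of the 222 reads in replicate 1.

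BMP4, AMH, NOG, ID3 and ID4 passed in neither direction. Except for AMH, these were genes with an almost unmethylated rest. The rest of BMP4 read 0.859% and 4.21%, that of NOG 3.28% and 1.12%, that of ID3 0.935% and 0% and that of ID4 1.17% and 2.24%. The rest of ID1 had 8 and 4 reads and was not tested. Low methylation in NOG, ID3 and ID4 thus reached past 1000 bp from the start, but these genes are only 1913, 1576 and 4828 bp long. The rest of BMP4 includes its other listed starts, and beyond every listed start BMP4 was called lower at its start. The inhibitory SMADs read higher than ID2, ID3 and ID4 here. The rest of SMAD6 was at 55.3% and 58.9% and that of SMAD7 at 63.8% and 55.8%. But SMAD6 and SMAD7 are 80614 and 31113 bp long and these ID genes 1576 to 4828 bp, so the rests cover unlike regions. BMPER, the longest of the genes at 251513 bp, read 69.6% and 80.4% over its rest. BMP2 and FST were called lower at their starts, but neither was in every setting: BMP2 was not within 1000 bp of the start, and FST was not within 250 bp or without the CpGs in peaks.

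**Figure D3:**
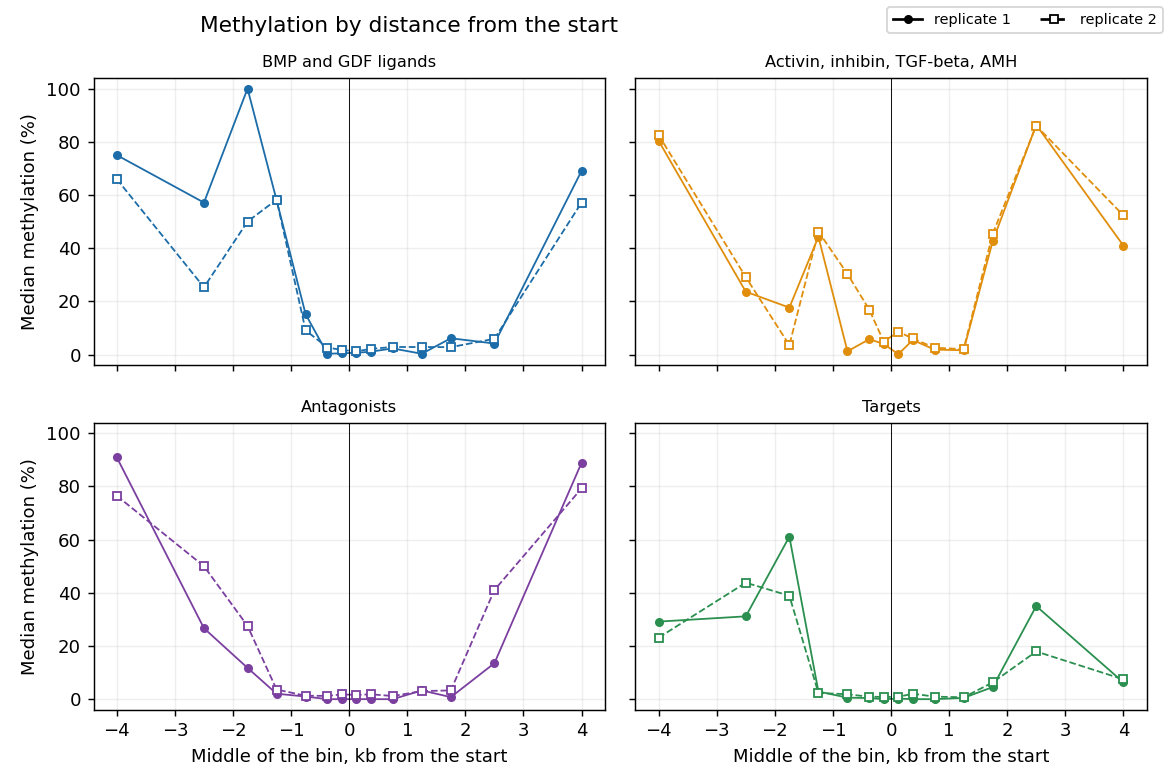
Median methylation over the genes of a role (percent of CpG reads, genes with at least 5 reads in the bin in each replicate) against distance from the start in kb, negative upstream, for replicate 1 (circles, solid) and replicate 2 (squares, dashed). BMP and GDF ligands, antagonists and targets have a flat floor around the start. The activin, inhibin, TGF-beta and AMH genes are less even, with 5.77% and 16.9% from -500 to -250 bp. Bins between -3 and -1 kb rest on 2 to 8 genes and scatter most.

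The profile with distance showed how far the low methylation reached. From 1000 to 1500 bp into the gene the medians were still 0.296% and 2.83% in BMP and GDF ligands, 3.28% and 3.03% in antagonists and 0.467% and 0.704% in targets. From 3000 to 5000 bp they were 69.0% and 57.1% over 11 BMP and GDF ligands and 88.9% and 79.2% over 3 antagonists. In that bin 8 activin, inhibin, TGF-beta and AMH genes read 41.0% and 52.3%, and 5 targets 6.33% and 7.45%. That last bin lies beyond the end of ID1, ID2 and ID3 and includes peaks downstream of ID1 and ID3. It also lies beyond the end of INHBE and AMH and includes a peak 3893 bp from the INHBE start. From 5000 to 10000 bp the targets read 59.1% and 64.1%.

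To measure this for each gene, a stretch was extended from the start in windows of 500 bp for as long as windows with at least 10 reads stayed under 20%. Windows with fewer reads were passed over, and 4 of them in a row ended the stretch, as did 20 kb on a side. A stretch could thus also end for want of reads. Over the 29 low genes the median stretch was 3 kb in both replicates, against 1.5 kb over the 10190 low genes of the background. Stretches of at least 5 kb in both replicates were found for 7 of 29 genes, and 2.44% of the background had them. The longest belonged to GDF6, a ligand of joint and eye development, at 9.5 and 9 kb. BMP4, NOG and INHBB each had 6 kb in both replicates, ID1 had 5 and 5.5 kb, and FST and SMAD7 had 5 kb. Ligands, antagonists and targets were all among these 7.

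Some lengths were not stable between replicates. ID2 had 9 kb in replicate 1 and 2.5 kb in replicate 2, and GDF7, a ligand of the neural roof plate, had 3 and 8 kb. The shortest stretch was that of GDF9, the oocyte ligand, at 1 kb in both replicates, and its start overlaps the gene UQCRQ. The median number of CpGs within 500 bp was 86 for the 29 genes and 77 for the background, and reads per CpG were 5.57 and 8.04 against 9.15 and 13.1. The part of CpG number and depth in these lengths was not tested.

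**Figure D4:**
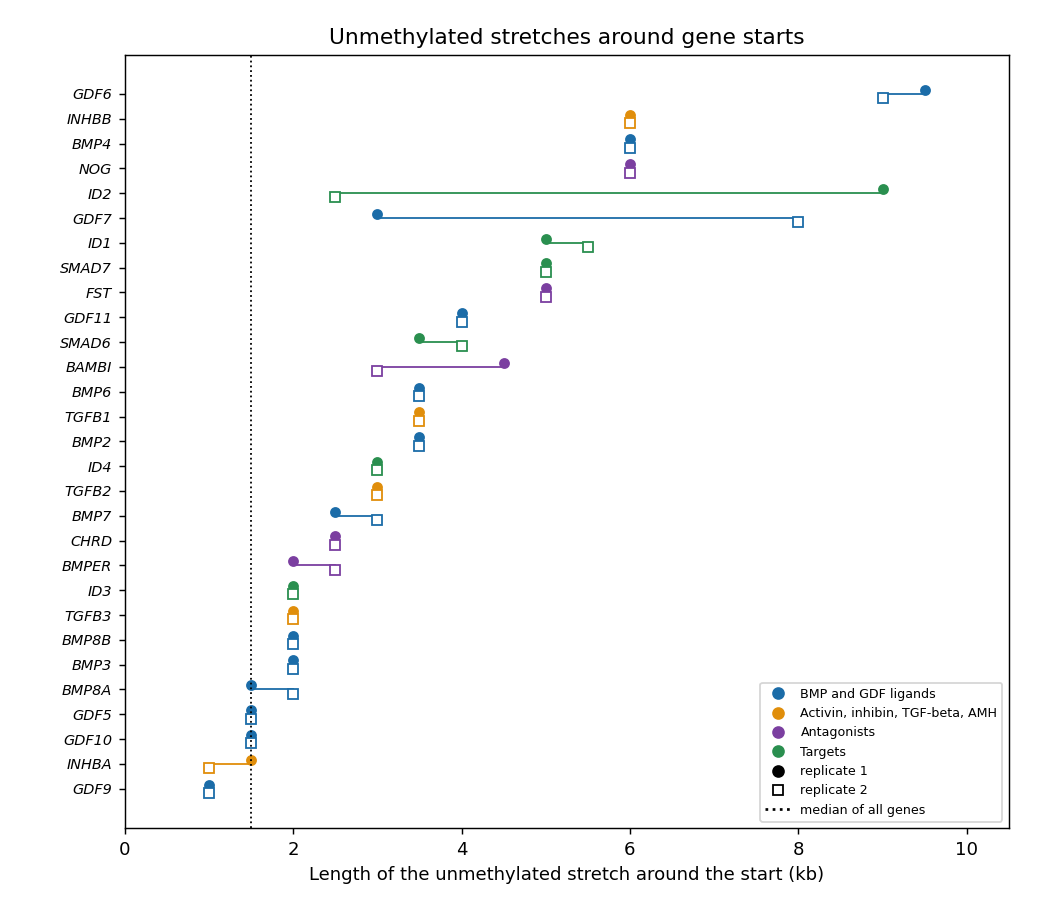
Length of the unmethylated stretch around the start (kb) for the 29 genes under 20% in both replicates, coloured by role, with circles for replicate 1, squares for replicate 2 and a dotted line at the median of all genes. GDF6 is longest and GDF9 shortest; ID2 and GDF7 are far apart between replicates.

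A low start did not always come with a peak among these genes. Of the 29 low starts 18 had a summit within 1000 bp, beside 9018 of 10190 in the background. A peak summit within 1000 bp of the start was found for 21 of 38 genes, where 62.2% of all genes had such a summit. All 6 targets had a start peak, as did 9 of 17 BMP and GDF ligands, 4 of 9 activin, inhibin, TGF-beta and AMH genes and 2 of 6 antagonists, NOG and BAMBI. With peaks of above-median significance only, the count fell to 14, and the share over all genes was not computed for these peaks. Within 10 kb of the gene 31 of 38 genes had a peak, beside 83.9% of all genes. The 7 without were BMP5, BMP8B, BMP10, GDF2, AMH, CHRD and GREM1. BMP5, BMP10 and GDF2, the last 2 known for acting on heart and vessels, had 9 and 9, 4 and 5, and 7 and 22 CpG reads at their starts. With so few reads their starts could not be measured.

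An unmethylated start without a peak was seen for 11 genes, against 10.4% of the measured background. They were BMP2, BMP7, BMP8B, GDF7, GDF10, INHBB, TGFB1, TGFB2, CHRD, FST and BMPER, all ligands or antagonists. The median reads per CpG at their starts were 3.40 and 5.39, against 8.72 and 10.7 for the 18 low starts with a summit. The background had 2.68 and 4.70 without a summit and 10.2 and 14.3 with one. Peaks are called from the same reads, so depth and peak calls are not separate measurements. BMP2, BMP7, INHBB, TGFB2, FST and BMPER had their nearest summit between 2045 and 2885 bp from the start, and the nearest to CHRD was 16771 bp away. Of the 18 low starts with a summit, the antagonist NOG and the target SMAD7 had it 973 and 863 bp away. Neither of these peaks reached within 500 bp of the start, so the split by role depends on the limit of 1000 bp.

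**Figure D5:**
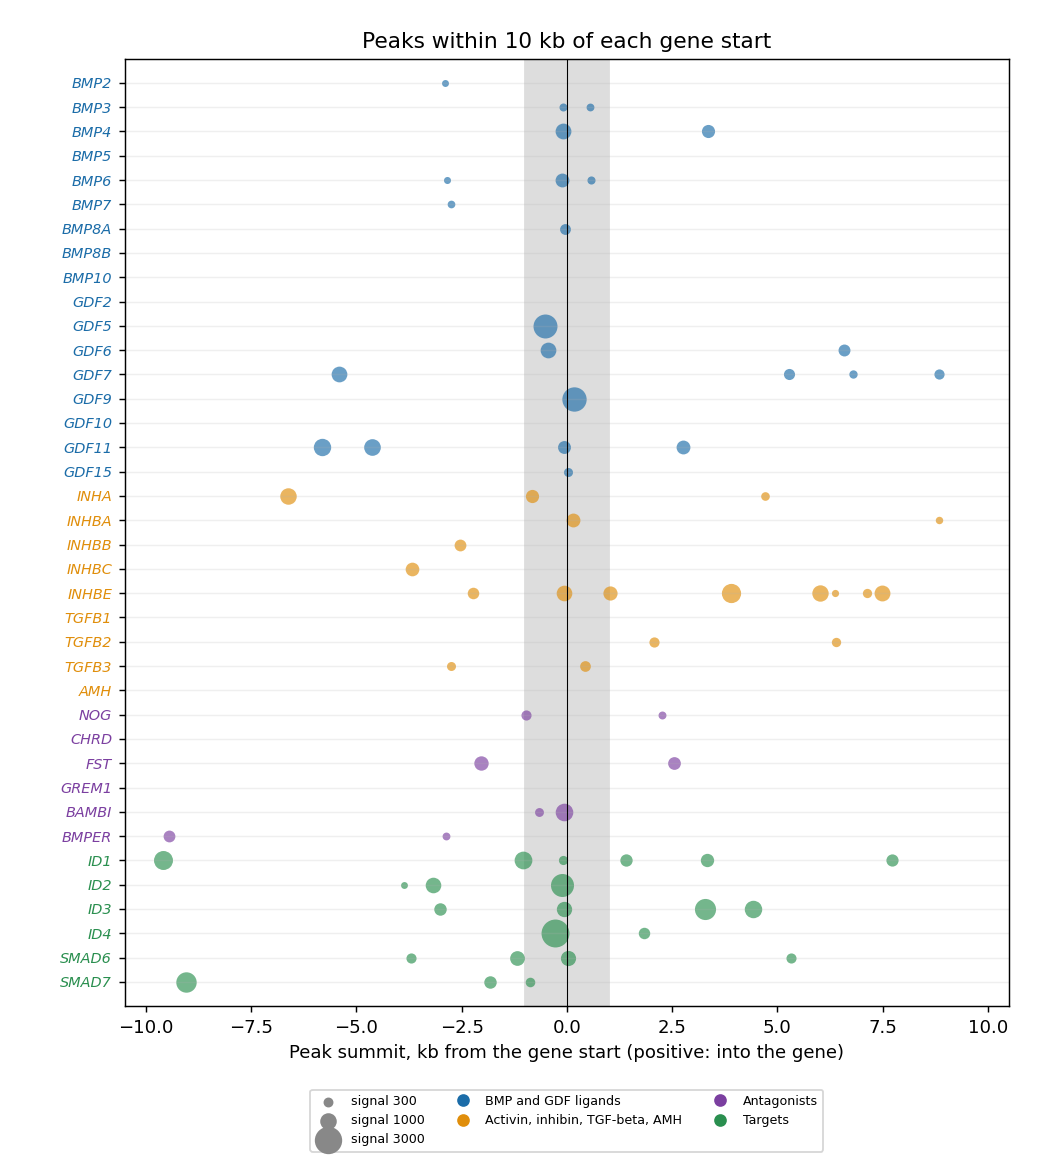
Position of every peak summit within 10 kb of each start (kb, positive into the gene), with area rising with the caller's signal, colour by role and a grey band for 1000 bp on each side. Each target has at least 2 peaks, ID4, GDF9, GDF5 and ID2 have the largest symbols, and 9 rows are empty.

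The peak signal is the caller's own value, in the authors' list, and serves here to rank peaks. ID4 had the strongest start peak of the 38 genes, with a signal of 3590 that exceeded 98.9% of all autosomal peaks. GDF9 followed with 2726, GDF5, a joint morphogen, with 2647, ID2 with 2439 and BAMBI with 1425. These 5 peaks read 0.282% and 1.39%, 0.272% and 1.27%, 0.215% and 1.46%, 0.285% and 1.40%, and 0.164% and 1.03% in replicates 1 and 2. Strong start peaks were thus unmethylated in each case. Of the start peaks of all genes, 97.8% were under 20% in both replicates. The GDF9 and GDF5 peaks lie at shared starts: the GDF9 summit is 154 bp from the start of UQCRQ, and CEP250 begins 416 bp from the GDF5 start. Which of the neighbours such a peak belongs to cannot be told apart.

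The targets differed in how their peaks were placed. SMAD6, with a signal of 1061, had its summit 19 bp from the start, and ID3, with 1078, had it 63 bp upstream. ID1 had a weak peak of 385 at its start and a stronger one of 1447 at 1031 bp upstream, which read 0.363% and 1.25%. SMAD7 had peaks of 421 at 863 bp, 717 at 1835 bp and 1916 at 9045 bp upstream. ID3 had its strongest peak, of 2052, at 3279 bp from the start, downstream of the gene. Within 10 kb of a start the targets had 22 peaks over 6 genes, the antagonists 8 over 4 genes and the BMP and GDF ligands 23 over 12. Counting from the whole gene interval, the median was 4 peaks a target and 2 over all genes.

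Peaks of these genes away from the start were somewhat more methylated than those at it, as in the background. The 38 genes had 98 listings of a peak within 10 kb, which are 92 different peaks, 86 of them with at least 10 reads in each replicate. The 24 peaks at starts had a median of 0.280% and 1.42% (0.852% ± 0.809, SD, n = 2). The 63 away from the gene's own start had 3.25% and 4.79% (4.02% ± 1.09, SD, n = 2), but some of these lie at the start of another gene, such as R3HDM2 near INHBC, B9D2 near TGFB1 and IFT43 near TGFB3. The 58 peaks more than 1000 bp from the start of any gene had a median of 3.48% and 5.48% (4.48% ± 1.41, SD, n = 2). The 15925 background peaks chosen in the same way, away from any start and within 10 kb of a gene, had 7.41% and 8.63% (8.02% ± 0.867, SD, n = 2). Under 20% in both replicates were 82.8% of the 58 and 63.4% of the background. The 9358 background peaks at a start had 0.406% and 1.32%, and 97.8% of them were under 20% in both replicates.

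Promoter letters could be read for 32 of the 38 genes in windows of 300 bases, 250 before and 50 after the start. BMP2, BMP3, BMP7, GDF6, INHBE and NOG had no entry. These windows held a median of 27.5 CpGs and 66% G and C, beside 22 CpGs and 62.7% over 15101 promoters. The range ran from 1 CpG in BMP5 and INHBA to 58 in INHBB. INHBA was nevertheless unmethylated over the wider 46 CpGs of its outermost start, which lies 2316 bp upstream of the start used for its promoter letters. That inner start had 6 CpGs with no read in replicate 1 and 7 reads in replicate 2, all of them methylated, so the 2 starts of INHBA read differently on what little depth the inner one had. For BMP4 too the promoter letters, and its motifs below, belong to an inner start, 1841 bp from the outermost start at which its methylation is given.

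Short motifs were searched on both strands of these windows. GGCGCC, the core of BMP response elements, was found in 10 of 32 (31.3%) beside 25.3% of all promoters, and in 0 of the 6 targets. GTCTAGAC, a palindrome bound by SMADs, was found only in SMAD6, 12 bp before the start and visible as gtctagac near the end of its printed window, beside 0.212% of all promoters. CAGAC, a SMAD site that the palindrome does not contain, was found in 16 (50%) beside 44.3%. TATAAA was found in 8 (25%) beside 9.83%, namely in TGFB2, ID4, BMP5, INHBA, GDF2, GDF11, GDF15 and ID1. GGGCGG, the GC box, was found in 18 (56.3%) beside 58.7%, and TGACGTCA in 0 beside 2.62%. A match is a description of the letters and no evidence of binding.

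The rest of the pathway was read from a list of 41 receptors, SMADs with their cofactors and extracellular regulators. Of these, 34 had a start of known direction and 27 were measured. Under 20% in both replicates were 24 of the 27, beside 90.7% of the measured background. Their median was 0.537% and 1.77% (1.15% ± 0.871, SD, n = 2). A start peak was found for 23 of 34 and a peak within 10 kb for all 34, beside 62.2% and 83.9% of all genes. ACVR1, a type I receptor for BMPs, read 0.537% and 1.64%, and SMAD2, which carries activin and TGF-beta signals, 0.187% and 1.77%. ENG, a TGF-beta coreceptor, read 40.8% and 71.5%, and FSTL3, a relative of FST, 36.6% and 16.7%. SMAD9 read 20.8% and 17.3%. By Fisher's exact test 24 of 26 genes were lower at the start than over the rest in both replicates, beside 90.9% of the background. FSTL3 was higher. The receptors and SMADs had rests of 69.7% ± 7.08 and 76.5% ± 3.46 (SD, n = 2), beside the 10.6% of the targets. That 10.6% is the value of ID2, a gene of 2406 bp, while the longer targets SMAD6 and SMAD7 read 57.1% and 59.8%.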

How the data were processed

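ATAC-Me was measured in 2 replicates of H9 cells, 1 group. Per the submitters' processing notes, reads were trimmed with Trim Galore and peaks called with Genrich on hg38 (GRCh38). The mapper, methylation caller, versions, duplicate removal and the way replicates were combined for peaks are not given by the sources that were used. The deposited tables give a methylation fraction and a count of covering reads per CpG, and sites without reads were left out. The authors' peak list gives a score capped by its format and not used here, a signal, the summit position, and the −log10 of q.

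Methylated reads are the fraction times the count, summed over CpGs, so reads that cover several CpGs count repeatedly. Duplicates cannot be recognised, and intervals (95%, Wilson) and limits at 0 reads (3 counts) cover counting error only. Incomplete conversion raises low values. Positions were counted from 1. The start was the 5′ end of the RefSeq interval, with direction from the RefSeq promoter table for 32 of the 38 genes and from textbook knowledge for 6. This definition was chosen after the data were examined, and the genes and lists were chosen with earlier results of these data known. Any of the 38 genes could be named, and of the pathway list those over 20% and the leading receptor and SMAD.

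Fisher's exact test compared the start (500 bp) with the rest of the gene (over 1000 bp away) in each replicate, and replicates with each other, for genes with at least 20 reads in each part, Benjamini-Hochberg adjusted over all such genes at 0.05. The scripts were tested on simulated data. Alternatives changed the window, read minimum, weighting, limits, peak significance, start and replicates. Python 3.11.15, numpy 2.4.6, pandas 2.3.3, SciPy 1.17.1 and matplotlib 3.10.9 were used.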

Additional observations from a re-analysis of the deposited data

How the results depend on the processing

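The count of low starts ranged from 28 to 31 and the count of starts lower than the rest of the gene from 22 to 26 over all settings tried, which included the promoter-table start and the sites marked as doubtful left out, both chosen after seeing the data. The median start was 0.789% without replicate 2 and 1.94% without replicate 1. Peak counts ranged from 14 to 21 at starts and from 27 to 31 within 10 kb. The ligand excess over targets was 0.323 within 250 bp, 1.87 within 1000 bp, 1.26 and 1.18 with at least 10 and 50 reads, 1.80 with CpGs weighted equally, and 1.20 to 1.24 with a replicate left out. The antagonist excess was 0.450 within 250 bp, reversed to -0.00027 within 1000 bp and to -0.0977 with equal weights, and was 0.138 to 0.321 with a replicate left out. Replicates differed at 3 starts within 250 bp and at 15 within 1000 bp. The windows hold different numbers of reads, and the cause of these changes was not tested. The shares over all genes were computed only for the settings of the results above. The counts at other settings thus have no background beside them.

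With a replicate left out, start minus rest ranged from -2.28 to 0.238 for NOG, from -2.79 to 0.643 for BMP4, from -2.82 to 0.682 for AMH and from -0.935 to 1.13 for ID3, so each changed sign, and none of the 4 was called with both replicates. BMP4 was called lower at -14.7 with the gene taken beyond every listed start and at -2.79 without replicate 1, and ID4 at -0.89 without replicate 2 and at -2.53 without CpGs in peaks. FST lost its call at -10.8 within 250 bp and at -17.1 without CpGs in peaks, and BMP2 at -4.96 within 1000 bp. No paired analysis was possible because the design has 1 group. Depth limits the starts with few reads, among them SMAD7, INHA and AMH, and the 5 genes not measured.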

Other observations

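Partly methylated peaks lay inside or near several of these genes. A peak 34443 bp into BMP7, of signal 874, read 44.4% and 64.3% on 9 and 14 reads. Peaks 8848 bp into GDF7 and 6384 bp into TGFB2 read 56.3% and 59.1%, and 40% and 44.1%. A peak 13238 bp into SMAD7 read 83.3% and 57.1% on 24 and 21 reads, and the SMAD7 start listed 8158 bp further in read 71.4% and 100% on 14 and 11 reads, while the outermost start was near 0. A peak 9584 bp upstream of ID1, of signal 1659, read 26.3% and 22.8%.

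The 4 listed starts of BMP4 read 1.5% and 1.42%, 1.10% and 0%, 1.68% and 0%, and 0.303% and 1.03%, in order from the outermost, so each was low in both replicates. Its stretch of 6 kb covers all 4, which lie within 3496 bp.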
